A study of Mus musculus with 24 samples.

Results

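The transcription factor NRF2, encoded by Nfe2l2, and 9 genes known as its antioxidant targets were followed through RNA-seq of mouse astrocyte lines that carried no p53 or a p53 point mutant. The 10 genes were Nfe2l2, Nqo1, Hmox1, Gclc, Gclm, Slc7a11, Txnrd1, Srxn1, Gstm1 and Gsta4. They were a fixed list of names, chosen with earlier results of these data known. All 10 were among the 14427 genes of the count table. The 24 libraries came from 8 lines, with 3 libraries each. A p53 KO line and lines with p53 Y217C, p53 Y202C and p53 R172H were made from 1 male and 1 female culture of cortical astrocytes of C57BL/6 pups at postnatal day 1. They were grown in serum and sequenced at passages 10 to 15. Every pup carried 1 floxed and 1 deleted Trp53 allele (Trp53 f/-), and each culture pooled at least 3 pups, so the sex of the donor and the culture cannot be told apart. The mutant lines received a retrovirus that overexpresses mutant Trp53 together with eGFP, were sorted for eGFP, and then received Cre recombinase by lentivirus with puromycin selection. The p53 KO lines received the Cre lentivirus and puromycin alone, so the mutant protein and the retrovirus with its sort cannot be told apart. Each line was a cell population, and nothing says that the 3 libraries of a line came from separately made lines, so p-values below measure only the spread between these libraries.

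NRF2 is held low in resting cells by the adaptor Keap1, which hands it to a Cul3 ubiquitin ligase for destruction. Oxidants and electrophiles modify Keap1, NRF2 then escapes, pairs with a small Maf protein and binds antioxidant response elements near its target genes, from which the repressor Bach1 is displaced. The targets import cystine, make glutathione, reduce thioredoxin, conjugate or reduce reactive compounds and break down haem, and astrocytes are known as a main site of this programme in brain. Because NRF2 is controlled largely at the protein level, the level of Nfe2l2 mRNA is no measure of its activity.

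Start-site sequence shows where letters like the antioxidant response element sit, and is given for the members whose windows held such letters and for Nqo1, whose response differed in direction between the cultures. In the RefSeq promoter table (GRCm38.p6, 250 bases before to 50 after each start), 7 of the 10 members had a window, and Hmox1, Gclc and Gsta4 are named only. The letters TGACNNNGC, the core of that element, and TGAGTCA, a site of the related AP-1 factors, were searched on both strands, and matches of the pair can overlap. Windows are written 5′ to 3′ along the gene, and capitals mark every match.
Nfe2l2, chr2:75704614-75704913, minus strand: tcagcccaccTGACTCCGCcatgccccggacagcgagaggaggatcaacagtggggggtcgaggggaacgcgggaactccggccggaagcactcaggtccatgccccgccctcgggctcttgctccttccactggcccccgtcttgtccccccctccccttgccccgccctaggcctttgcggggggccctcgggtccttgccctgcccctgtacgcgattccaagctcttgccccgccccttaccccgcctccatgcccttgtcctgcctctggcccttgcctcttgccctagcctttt
Nqo1, chr8:107403156-107403455, minus strand: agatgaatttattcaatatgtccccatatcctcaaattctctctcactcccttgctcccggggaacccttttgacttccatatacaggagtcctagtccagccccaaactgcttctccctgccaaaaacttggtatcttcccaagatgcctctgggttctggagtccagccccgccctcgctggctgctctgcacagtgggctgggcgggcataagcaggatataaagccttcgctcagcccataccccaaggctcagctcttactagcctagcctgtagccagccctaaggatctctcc
Gclm, chr3:122245307-122245606, plus strand: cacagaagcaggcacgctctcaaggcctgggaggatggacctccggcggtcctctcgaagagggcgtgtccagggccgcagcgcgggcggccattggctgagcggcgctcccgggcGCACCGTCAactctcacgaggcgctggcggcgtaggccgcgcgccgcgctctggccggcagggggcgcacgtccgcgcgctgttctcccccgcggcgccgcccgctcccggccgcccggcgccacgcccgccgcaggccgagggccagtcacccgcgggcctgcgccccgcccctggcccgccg
Txnrd1, chr10:82858956-82859255, plus strand: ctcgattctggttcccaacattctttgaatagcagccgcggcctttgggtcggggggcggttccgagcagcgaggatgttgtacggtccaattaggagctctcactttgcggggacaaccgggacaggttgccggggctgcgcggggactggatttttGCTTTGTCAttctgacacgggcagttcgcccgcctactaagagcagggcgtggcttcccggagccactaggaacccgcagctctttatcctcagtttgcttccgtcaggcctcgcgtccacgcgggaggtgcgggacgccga
Srxn1, chr2:152105274-152105573, plus strand: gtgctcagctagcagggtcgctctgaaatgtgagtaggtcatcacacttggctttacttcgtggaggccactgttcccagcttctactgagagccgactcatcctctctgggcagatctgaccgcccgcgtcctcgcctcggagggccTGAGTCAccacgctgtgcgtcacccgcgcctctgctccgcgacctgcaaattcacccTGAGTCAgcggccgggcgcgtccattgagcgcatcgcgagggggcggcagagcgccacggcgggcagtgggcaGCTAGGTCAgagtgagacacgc
TGACNNNGC occurred in the windows of Nfe2l2, Gclm and Srxn1 and in 1 of 3 windows of Txnrd1, which is 4 of 10 member windows, and in 12.4% of all 32851 windows. TGAGTCA occurred 2 times in the Srxn1 window, at -102 and -45 from the start, and in 5.2% of all windows. The windows of Nqo1, Slc7a11 and Gstm1 held none of these letters, which says nothing of sites farther away. A match is a run of letters and not a measured site.

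Library totals ran from 52787288 to 136503809 counts, and libraries of 1 line correlated at 0.991 or more. Trp53 lay between 46.5 and 53.7 CPM (counts scaled to the TMM-adjusted library total) in the 6 p53 KO libraries and between 572 and 3869.8 CPM in the 18 mutant libraries, so the labels held for the introduced gene. The astrocyte label was checked against 11 markers, all in the table: Sox9 had line means between 80.0 and 183 CPM, Gfap was below 0.3 CPM in 7 lines and was at 6.93 ± 1.75 CPM (SD, n = 3) in male p53 Y217C. Aqp4 was at 0 in male p53 R172H and female p53 KO, at 1.77 CPM in male p53 Y202C and at 8.06 CPM in male p53 Y217C. S100b had line means of at most 1.28 CPM, in male p53 Y217C. Slc1a3 ran from 3.14 CPM in female p53 Y217C to 106 CPM in male p53 Y217C and 281 CPM in female p53 R172H. The rest of the 11 markers are given only within their sum, to which these named ones add a part. The sum of the 11 markers was 358 to 384 CPM in male p53 KO and 360 to 386 CPM in female p53 KO. Among the mutant lines it ran from 200.2 to 211 CPM in male p53 Y202C to 631 to 666 CPM in female p53 R172H. Of markers of other cells, 2 of 8 microglial, 3 of 7 oligodendrocyte-lineage, 3 of 5 neuronal and 3 of 5 endothelial genes were in the table. The microglial sum was 64.4 to 80.7 CPM in male p53 KO and 43.1 to 46.8 CPM in female p53 KO, and among the mutant lines it ran from 16.7 to 18.3 CPM in male p53 Y217C to 103 to 114 CPM in female p53 R172H. The oligodendrocyte-lineage sum was 243 to 265 CPM in male p53 KO and 279 to 290.3 CPM in female p53 KO, and among the mutant lines it ran from 61.5 to 64.9 CPM in male p53 Y217C to 319.5 to 335 CPM in male p53 R172H. The neuronal sum was 100.3 to 103 CPM in male p53 KO and 126 to 129 CPM in female p53 KO, and among the mutant lines it ran from 31.3 to 38.2 CPM in female p53 R172H to 126 to 137 CPM in male p53 Y217C. The endothelial sum was 43.3 to 47.6 CPM in male p53 KO and 17.7 to 19.1 CPM in female p53 KO, and among the mutant lines it ran from 6.94 to 7.57 CPM in male p53 Y217C to 17.2 to 17.8 CPM in female p53 R172H. The defining genes Aif1, Cx3cr1, Olig2, Sox10, Rbfox3 and Pecam1 had no row. All 8 mural and fibroblast markers were present. In the male culture their sum was 29724 to 35089 CPM in p53 KO, 34679 to 38162 CPM in p53 R172H, 10859 to 13098 CPM in p53 Y202C and 20964 to 21514 CPM in p53 Y217C. In the female culture it was 26014 to 28070.5 CPM in p53 KO, 44622 to 52095 CPM in p53 R172H, 36886 to 43509.7 CPM in p53 Y202C and 27628 to 29434 CPM in p53 Y217C. In every line the mural and fibroblast sum lay above the sum of the 11 astrocyte markers. The markers thus do not by themselves bear out the astrocyte label, which is kept here as the name of the lines. The study assessed astrocyte purity by GFAP immunofluorescence, a protein measure. All the marker sums moved between the lines alongside the results below, and their part in them was not tested. In such bulk libraries fewer cells of a type and less RNA per cell cannot be told apart.

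NRF2 and its targets did not all move in 1 direction in any mutant line. Relative to the p53 KO of the same culture, Nqo1 fell in all 3 male mutant lines and rose in all 3 female ones. Gstm1 rose in 5 of 6 mutant lines, and Txnrd1 fell in 5 of 6. The largest changes were a 5.68-fold rise of Gsta4 and a 4.93-fold rise of Gstm1 in male p53 Y217C, beside a 3.44-fold fall of Nqo1 in the same line. A gene was called when edgeR's quasi-likelihood test, fitted to all 24 libraries and all genes, gave a Benjamini-Hochberg adjusted p of 0.05 or less. Changes are log2 fold changes ± standard error (SE), n = 3 libraries a line.

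In male p53 R172H, 1 member was higher (Slc7a11), beside 20.2% of all genes called higher, and 6 were lower, beside 20.5% of all genes called lower. Male p53 Y202C had 6 members higher, where 37.6% of all genes were, and 3 lower (Nqo1, Srxn1 and Gsta4), where 35.4% were. Male p53 Y217C was the comparison in which all 10 members were called, 7 higher and 3 lower (Nqo1, Txnrd1 and Srxn1), with 34.9% of all genes higher and 35.6% lower. In the female culture, p53 R172H had 5 members higher (34.4% of all genes) and 4 lower (35.3%), and p53 Y202C had 5 higher (34.3%) and 3 lower (34.3%). Female p53 Y217C had 3 members higher (Nqo1, Slc7a11 and Gstm1) beside 28% of all genes, and 2 lower (Gclm and Txnrd1) beside 28.7%. The median log2 fold change of the 10 members was -0.29 in male p53 R172H, 0.52 in male p53 Y202C and 0.35 in male p53 Y217C. In the female lines it was 0.11, 0.11 and 0.028 in the same order, while the median over all genes tested lay between -0.0096 and 0.012 in the 6 comparisons. The 3 comparisons of a culture share 1 p53 KO line, so their values are given side by side and are not independent of each other.

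**Figure D1:**
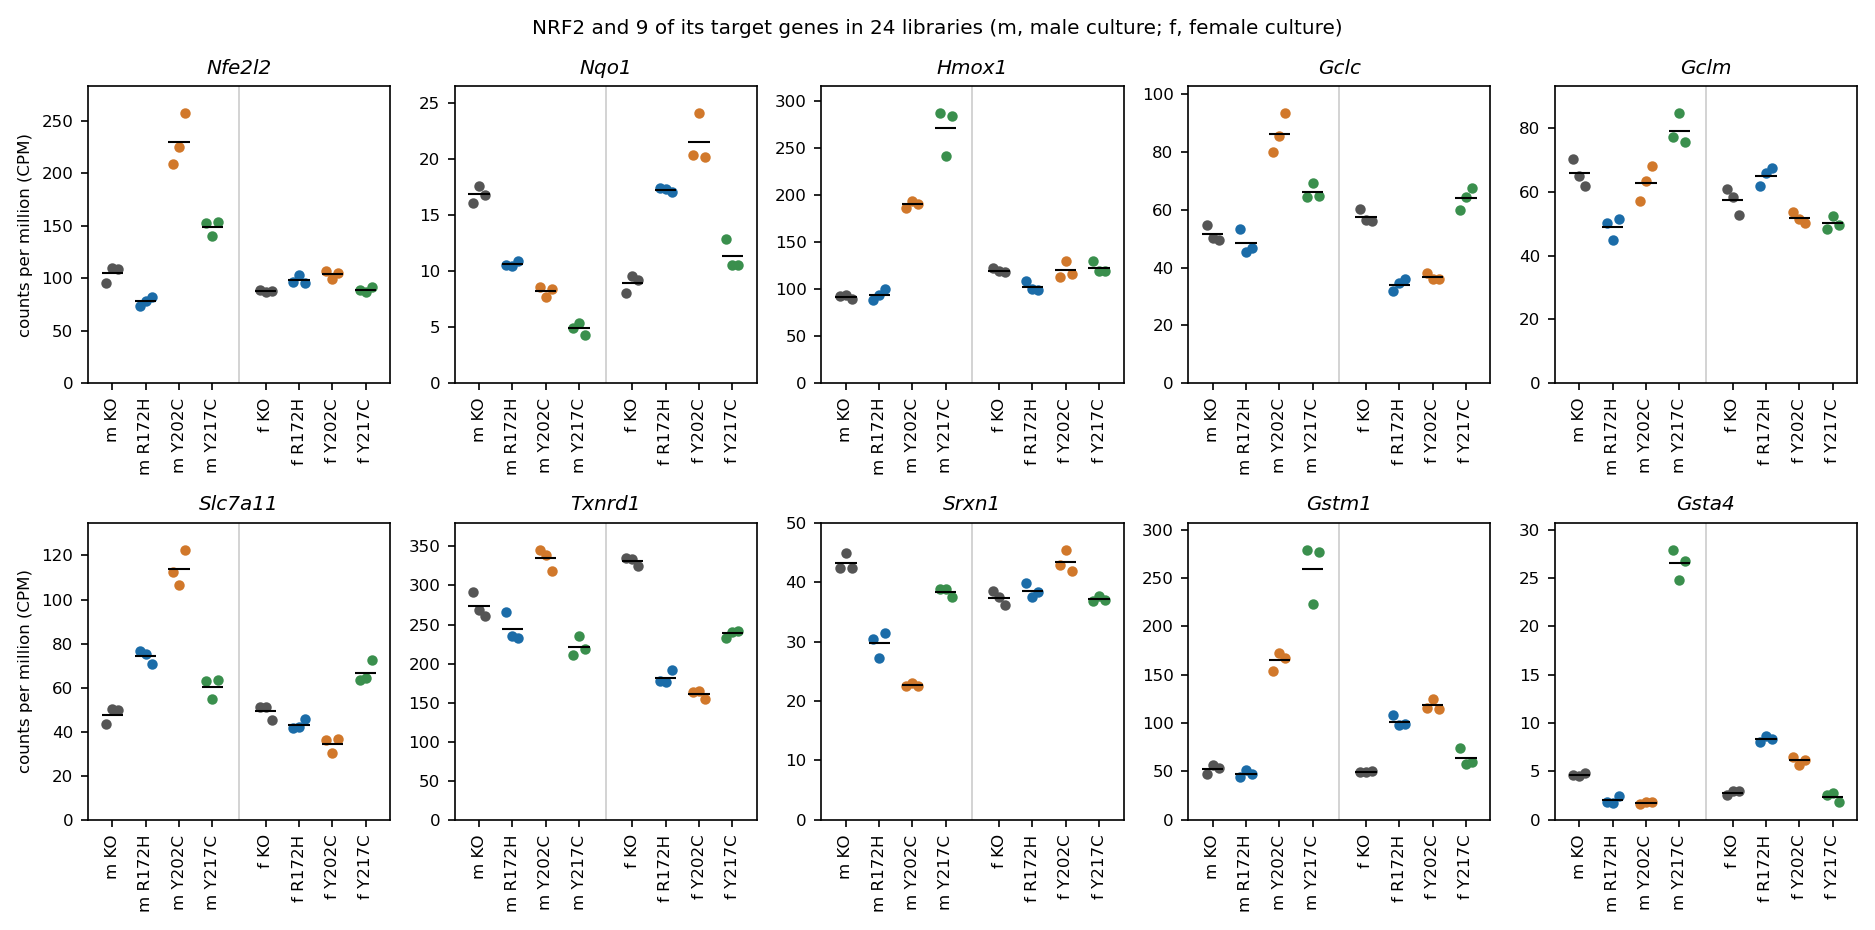
Level of each of the 10 genes in the 24 libraries, in CPM on a linear axis from 0. Each point is 1 library, the bar is the mean of 3, and m and f mark the male and female culture; Nqo1 steps down from p53 KO to p53 Y217C in the male culture, while its 3 female mutant lines all lie above female p53 KO.

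Nfe2l2 itself changed in 5 of the 6 mutant lines, by at most 2.2-fold. The annotation (GENCODE M21, GRCm38), in which all 10 members are protein-coding, places Nfe2l2 (ENSMUSG00000015839) on the minus strand of chromosome 2, from 75675513 to 75704641. Its level in the 3 male p53 KO libraries was 95.9, 110.0 and 108 CPM, against 73.8, 78.8 and 82.1 CPM in p53 R172H, 209, 225 and 257 CPM in p53 Y202C and 153, 141 and 153 CPM in p53 Y217C. No male mutant library overlapped the male p53 KO libraries, with p53 R172H below them and the other lines above. The change was -0.42 ± 0.065 in p53 R172H (adjusted p = 1.65e-05), 1.13 ± 0.066 in p53 Y202C (adjusted p = 1.48e-13) and 0.51 ± 0.065 in p53 Y217C (adjusted p = 2.48e-07). Female p53 KO libraries held 89.3, 86.9 and 87.7 CPM, p53 R172H 96.7, 103 and 95.9 CPM, p53 Y202C 107, 99.3 and 105 CPM and p53 Y217C 88.7, 87.0 and 91.9 CPM. The female lines thus lay close together: p53 Y202C rose by 0.24 ± 0.065 (adjusted p = 0.0025) and p53 R172H by 0.16 ± 0.065 (adjusted p = 0.0281), and p53 Y217C overlapped its p53 KO, with 0.02 ± 0.065 (adjusted p = 0.813). The p53 R172H call was lost without female p53 KO replicate 2 (adjusted p = 0.0719), female p53 KO replicate 3 (0.061) or female p53 R172H replicate 2 (0.117), and with upper-quartile scaling (0.0582). In the order of the 8 line means, male p53 Y202C and male p53 Y217C were highest and male p53 R172H lowest, and 3 of 7 neighbouring pairs of lines overlapped.

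The genes that act on the NRF2 protein or share its sites were taken from a wider list of 82 tested redox and detoxification genes. Of these 7 regulators, 2, 4 and 0 were higher and 3, 2 and 4 lower in male p53 R172H, p53 Y202C and p53 Y217C, and 2, 0 and 2 were higher and 5, 4 and 4 lower in the same female lines. Among all genes the shares were 20.2%, 37.6% and 34.9% higher and 20.5%, 35.4% and 35.6% lower in those male lines, and 34.4%, 34.3% and 28% higher and 35.3%, 34.3% and 28.7% lower in the female lines. With 7 genes nothing is read from these counts. The median change of the 7 ran from -0.33 in female p53 Y217C to 0.19 in male p53 Y202C. Cul3 was lower in every mutant line except male p53 Y202C, with its largest change, -0.52 ± 0.067, in female p53 Y217C (adjusted p = 5.02e-07). Keap1 was at 62.2 ± 1.06 CPM (SD, n = 3) in male p53 KO and 47.1 ± 3.18 CPM in male p53 Y202C, a change of -0.40 ± 0.057 (adjusted p = 9.77e-07). It was higher in male p53 R172H, female p53 R172H and female p53 Y217C, by at most 0.36. The small Maf gene Mafk rose in male p53 Y202C from 33.9 ± 3.2 to 80.1 ± 8.14 CPM (1.24 ± 0.081, adjusted p = 1.59e-12), and Maff rose there by 0.71 ± 0.073 (adjusted p = 5.64e-09). In the 3 female lines Mafk, Maff and Mafg were all lower, with changes of -0.28 to -0.57 for Mafk. Bach1, the repressor, was lowest in male p53 Y217C, at 25.5 ± 0.0658 CPM against 42.6 ± 0.829 CPM in male p53 KO (-0.74 ± 0.048, adjusted p = 1.31e-12). Nfe2l1, a relative of NRF2, was higher in 4 lines, by at most 0.39 in male p53 Y202C.

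Of the genes for cystine import and glutathione synthesis, Slc7a11 and Gclc both rose in male p53 Y202C and both fell in female p53 Y202C, while Gclm was called in neither. Slc7a11 encodes the light chain of the cystine and glutamate exchanger, which supplies the cysteine of glutathione. The annotation places Slc7a11 (ENSMUSG00000027737) on the minus strand of chromosome 3, from 49892526 to 50443614, and Gm37854, Gm37826 and Gm2345 overlap its span on the opposite strand. In male p53 KO its libraries were at 43.3, 50.1 and 49.8 CPM, in p53 R172H at 76.8, 75.3 and 70.7 CPM, in p53 Y202C at 113, 107 and 123 CPM and in p53 Y217C at 63.2, 54.8 and 63.5 CPM. All 9 male mutant libraries lay above the 3 male p53 KO libraries. The rise was 0.64 ± 0.079 in p53 R172H (adjusted p = 8.81e-07), 1.25 ± 0.08 in p53 Y202C (adjusted p = 9.47e-13) and 0.34 ± 0.08 in p53 Y217C (adjusted p = 0.000567). For the female lines the values were 51.0, 51.2 and 45.5 CPM in p53 KO, 41.5, 42.3 and 46.0 CPM in p53 R172H, 36.1, 30.5 and 36.5 CPM in p53 Y202C and 63.4, 64.5 and 72.6 CPM in p53 Y217C. Here p53 Y202C lay below p53 KO (-0.52 ± 0.081, adjusted p = 5.08e-06), p53 Y217C above it (0.44 ± 0.08, adjusted p = 5.49e-05) and p53 R172H overlapped it (-0.19 ± 0.08, adjusted p = 0.0417). That last call was lost without female p53 KO replicate 1 (adjusted p = 0.126) or 2 (0.13), without female p53 R172H replicate 1 (0.133) or 2 (0.103), and in DESeq2 (0.0657). Slc3a2, the heavy chain of the same exchanger, rose in 5 of the 6 lines, by 0.68, 1.09 and 0.39 in the male lines and by 0.41 and 0.62 in female p53 R172H and p53 Y217C. In female p53 Y202C, where Slc7a11 fell, the value for Slc3a2 was -0.10 ± 0.062 (adjusted p = 0.138).

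Gclc, the catalytic subunit of glutamate-cysteine ligase, the rate-limiting enzyme of glutathione synthesis, rose in 2 male lines and fell in 2 female lines. The annotation places Gclc (ENSMUSG00000032350) on the plus strand of chromosome 9, from 77754535 to 77794485. Levels were 54.8, 50.3 and 49.6 CPM in male p53 KO, 53.2, 45.5 and 46.9 CPM in male p53 R172H, 80.0, 85.5 and 93.4 CPM in male p53 Y202C and 64.5, 69.3 and 64.9 CPM in male p53 Y217C. Male p53 Y202C (0.74 ± 0.067, adjusted p = 5.68e-10) and p53 Y217C (0.36 ± 0.067, adjusted p = 4.35e-05) lay above all p53 KO libraries, and p53 R172H overlapped them (-0.086 ± 0.067, adjusted p = 0.328). Female libraries held 60.2, 56.4 and 56.2 CPM in p53 KO, 31.8, 34.6 and 36.0 CPM in p53 R172H, 38.2, 36.1 and 36.2 CPM in p53 Y202C and 60.0, 64.4 and 67.5 CPM in p53 Y217C. Gclc was thus lower in p53 R172H (-0.75 ± 0.068, adjusted p = 6.78e-10) and p53 Y202C (-0.65 ± 0.068, adjusted p = 1.30e-08) without overlap. In female p53 Y217C the change of 0.15 ± 0.067 missed the threshold (adjusted p = 0.0591) and passed it without female p53 KO replicate 1 (0.0472) or female p53 Y217C replicate 1 (0.0293) and in limma (0.00192).

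Gclm, the modifier subunit of the same ligase, varied least of the 10 genes, with a highest line mean of 79.1 ± 4.89 CPM and a lowest of 48.8 ± 3.44 CPM (SD, n = 3). The annotation places Gclm (ENSMUSG00000028124) on the plus strand of chromosome 3, from 122245557 to 122270732, where Gm17494 overlaps it on the opposite strand and is also in the table. The strand setting of the counting is not given in the sources used here, so for Gclm, Slc7a11 and Txnrd1 reads of a stretch shared with an opposite-strand gene cannot be assigned with certainty. Male p53 KO libraries were at 70.4, 65.1 and 62.0 CPM and p53 R172H libraries at 50.1, 44.9 and 51.5 CPM, a change of -0.43 ± 0.07 (adjusted p = 2.99e-05). Male p53 Y217C libraries, at 77.1, 84.7 and 75.6 CPM, were higher by 0.27 ± 0.069 (adjusted p = 0.00153). Male p53 Y202C, at 57.3, 63.4 and 68.1 CPM, overlapped p53 KO (-0.065 ± 0.069, adjusted p = 0.408), but was called lower with upper-quartile scaling (0.0287). The female means were 57.3 ± 4.13 CPM in p53 KO, 65.1 ± 3.0 CPM in p53 R172H, 51.9 ± 1.67 CPM in p53 Y202C and 50.2 ± 2.01 CPM in p53 Y217C, and 6 of 7 neighbouring pairs in the order of all 8 lines overlapped. Female p53 R172H was called higher (0.18 ± 0.069, adjusted p = 0.0224) and female p53 Y217C lower (-0.19 ± 0.07, adjusted p = 0.0237). The change in p53 Y202C (-0.14 ± 0.07) was not called (adjusted p = 0.0721) but passed without female p53 KO replicate 3 (0.0228). The p53 R172H call was lost without female p53 KO replicate 3 (0.142), p53 R172H replicate 2 (0.0575) or p53 R172H replicate 3 (0.0818). The p53 Y217C call was lost without female p53 KO replicate 1 (0.121) or 2 (0.0683), or p53 Y217C replicate 1 (0.0847) or 3 (0.0589).

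In the thioredoxin arm, Txnrd1 fell in all 3 female lines while Srxn1 fell in all 3 male lines. Txnrd1 is the cytosolic thioredoxin reductase, and the annotation places Txnrd1 (ENSMUSG00000020250) on the plus strand of chromosome 10, from 82833951 to 82897712, where Gm38560 and Gm47073 overlap its span on the opposite strand. Its female levels were 335, 334 and 325 CPM in p53 KO, 177, 176 and 192 CPM in p53 R172H, 164, 165 and 155 CPM in p53 Y202C and 233, 241 and 242 CPM in p53 Y217C. Every female mutant library lay below every female p53 KO library. The fall was 1.82-fold in p53 R172H (-0.86 ± 0.058, adjusted p = 3.01e-12), 2.05-fold in p53 Y202C (-1.04 ± 0.058, adjusted p = 1.67e-13) and 1.39-fold in p53 Y217C (-0.47 ± 0.057, adjusted p = 2.24e-07). The male libraries were at 292, 268 and 261 CPM in p53 KO, 266, 236 and 233 CPM in p53 R172H, 346, 339.7 and 318 CPM in p53 Y202C and 211, 236 and 219 CPM in p53 Y217C. Male p53 Y202C lay above its p53 KO (0.29 ± 0.057, adjusted p = 7.75e-05) and p53 Y217C below it (-0.30 ± 0.057, adjusted p = 5.46e-05). Male p53 R172H overlapped its p53 KO and was called lower (-0.16 ± 0.057, adjusted p = 0.028), a call lost without male p53 KO replicate 1 (0.169), male p53 R172H replicate 2 (0.117) or male p53 R172H replicate 3 (0.131).

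Srxn1 encodes sulfiredoxin, which restores overoxidised peroxiredoxins, and the annotation places Srxn1 (ENSMUSG00000032802) on the plus strand of chromosome 2, from 152105516 to 152111376. Male p53 KO libraries held 42.5, 44.9 and 42.4 CPM, p53 R172H 30.5, 27.3 and 31.4 CPM, p53 Y202C 22.5, 23.0 and 22.5 CPM and p53 Y217C 38.9, 38.9 and 37.5 CPM. All 9 male mutant libraries lay below the male p53 KO libraries, and male p53 Y202C, which held the highest Slc7a11, Gclc, Txnrd1 and Nfe2l2 of the 8 line means, had the lowest Srxn1. The change was -0.54 ± 0.052 in p53 R172H (adjusted p = 1.48e-08), -0.93 ± 0.053 in p53 Y202C (adjusted p = 1.02e-13) and -0.17 ± 0.052 in p53 Y217C (adjusted p = 0.00524). The 12 female libraries stayed between 36.1 and 45.5 CPM. Only p53 Y202C, at 42.9, 45.5 and 41.9 CPM against 38.5, 37.5 and 36.1 CPM in female p53 KO, was called there (0.22 ± 0.052, adjusted p = 0.000806), and p53 R172H (0.047 ± 0.052, adjusted p = 0.426) and p53 Y217C (-0.0059 ± 0.052, adjusted p = 0.933) overlapped their p53 KO.

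Nqo1, the quinone reductase that is widely used as a readout of NRF2, was the member whose direction split most cleanly by culture. The annotation places Nqo1 (ENSMUSG00000003849) on the minus strand of chromosome 8, from 107388225 to 107403206. In the male lines its libraries were at 16.0, 17.6 and 16.8 CPM in p53 KO, 10.5, 10.4 and 10.9 CPM in p53 R172H, 8.58, 7.69 and 8.39 CPM in p53 Y202C and 4.97, 5.34 and 4.34 CPM in p53 Y217C. No male mutant library reached the lowest p53 KO library. The changes were -0.66 ± 0.09 (adjusted p = 2.67e-06), -1.03 ± 0.091 (adjusted p = 3.75e-10) and -1.78 ± 0.095 (adjusted p = 3.14e-14) in p53 R172H, p53 Y202C and p53 Y217C. The female libraries were at 8.03, 9.52 and 9.2 CPM in p53 KO, 17.4, 17.3 and 17.0 CPM in p53 R172H, 20.4, 24.1 and 20.2 CPM in p53 Y202C and 12.9, 10.5 and 10.5 CPM in p53 Y217C. Every female mutant library exceeded every female p53 KO library. Rises were 0.95 ± 0.09 (adjusted p = 1.74e-09), 1.27 ± 0.091 (adjusted p = 1.54e-11) and 0.35 ± 0.091 (adjusted p = 0.00255) in the same order. The p53 KO lines themselves differed, with male p53 KO 1.89-fold above female p53 KO (0.92 ± 0.09, adjusted p = 2.07e-08), so that female p53 R172H reached the level of male p53 KO and overlapped it.

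The glutathione transferases Gstm1 and Gsta4, which conjugate glutathione to electrophiles and, for Gsta4, to aldehydes from oxidised lipids, held the largest changes. The annotation places Gstm1 (ENSMUSG00000058135) on the minus strand of chromosome 3, from 108012255 to 108017973, within a cluster of related Gstm genes. The authors counted uniquely aligned reads, so any reads that align equally well to those relatives are missing, to an extent not measured here. Gstm1 was at 47.8, 56.2 and 53.9 CPM in male p53 KO, 44.1, 51.0 and 47.7 CPM in male p53 R172H, 154, 173 and 167 CPM in male p53 Y202C and 279.5, 223 and 277 CPM in male p53 Y217C. Male p53 R172H overlapped p53 KO (-0.15 ± 0.088, adjusted p = 0.195), and the other lines stood clear of it. The rise was 3.13-fold in p53 Y202C (1.65 ± 0.089, adjusted p = 4.71e-14) and 4.93-fold in p53 Y217C (2.30 ± 0.091, adjusted p = 1.06e-16). Female libraries were at 49.6, 49.4 and 50.1 CPM in p53 KO, 108, 98.0 and 98.7 CPM in p53 R172H, 116, 125 and 115 CPM in p53 Y202C and 74.2, 58.2 and 60.1 CPM in p53 Y217C. All 9 female mutant libraries lay above p53 KO, by 1.03 ± 0.088 (adjusted p = 2.96e-10), 1.26 ± 0.089 (adjusted p = 1.30e-11) and 0.37 ± 0.088 (adjusted p = 0.00108). In the order of line means the upper 5 lines were all mutants whose ranges did not overlap, from male p53 Y217C down to female p53 Y217C, and the lowest 3 lines, the p53 KO lines and male p53 R172H, did overlap.

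Gsta4 had the lowest count of the 10 genes and the widest range, 15.0-fold between the highest and lowest line means. The annotation places Gsta4 (ENSMUSG00000032348) on the plus strand of chromosome 9, from 78182774 to 78209349, and its lowest library held 121 counts. Male libraries were at 4.68, 4.48 and 4.84 CPM in p53 KO, 1.82, 1.73 and 2.46 CPM in p53 R172H, 1.61, 1.84 and 1.85 CPM in p53 Y202C and 27.9, 24.8 and 26.8 CPM in p53 Y217C. Gsta4 was therefore below p53 KO in p53 R172H (-1.22 ± 0.13, adjusted p = 9.33e-08) and p53 Y202C (-1.41 ± 0.13, adjusted p = 1.55e-09) and above it in p53 Y217C (2.51 ± 0.12, adjusted p = 8.11e-15). The female libraries held 2.52, 2.96 and 2.93 CPM in p53 KO, 8.01, 8.7 and 8.32 CPM in p53 R172H, 6.49, 5.69 and 6.21 CPM in p53 Y202C and 2.55, 2.8 and 1.8 CPM in p53 Y217C. Here the directions were the reverse of the male ones: p53 R172H (1.58 ± 0.13, adjusted p = 9.26e-11) and p53 Y202C (1.13 ± 0.13, adjusted p = 4.62e-08) were higher. Female p53 Y217C overlapped p53 KO (-0.23 ± 0.13, adjusted p = 0.157), and passed the threshold only without its replicate 2 (0.0464).

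Hmox1, the inducible haem oxygenase, which turns haem into biliverdin, iron and carbon monoxide, rose in male p53 Y202C and male p53 Y217C and in no female line. The annotation places Hmox1 (ENSMUSG00000005413) on the plus strand of chromosome 8, from 75093621 to 75100589. Male libraries were at 93.0, 93.3 and 90.0 CPM in p53 KO, 88.9, 93.4 and 99.7 CPM in p53 R172H, 186, 193 and 191 CPM in p53 Y202C and 287, 242 and 284 CPM in p53 Y217C. Male p53 Y202C rose 2.06-fold (1.05 ± 0.063, adjusted p = 3.36e-13) and p53 Y217C 2.94-fold (1.56 ± 0.064, adjusted p = 2.06e-16), each above every p53 KO library. Male p53 R172H overlapped p53 KO (0.03 ± 0.063, adjusted p = 0.743). In female cells Hmox1 was at 122, 119 and 118 CPM in p53 KO, 108, 99.7 and 99.0 CPM in p53 R172H, 113, 129.9 and 116 CPM in p53 Y202C and 129.9, 119 and 119 CPM in p53 Y217C. Female p53 R172H lay below p53 KO (-0.23 ± 0.063, adjusted p = 0.00261), and p53 Y202C (adjusted p = 0.987) and p53 Y217C (adjusted p = 0.652) overlapped it with changes of 0.0013 and 0.035.

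**Figure D2:**
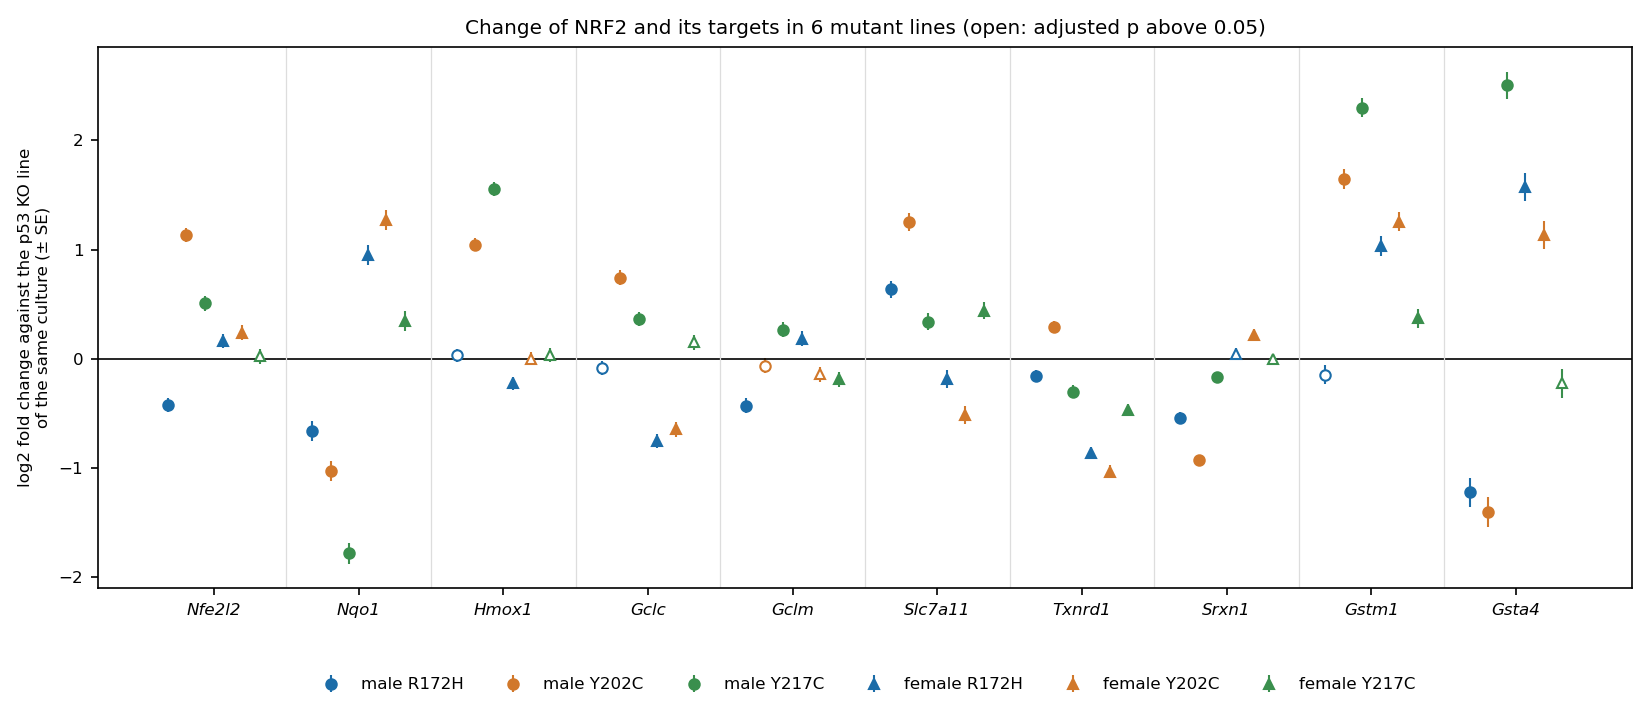
Log2 fold change ± SE of the 10 genes in each mutant line against the p53 KO of its culture, with circles for male and triangles for female lines and open symbols for adjusted p above 0.05. Gsta4 spans from -1.41 in male p53 Y202C to 2.51 in male p53 Y217C, and Nqo1 is below 0 in the male and above 0 in the female lines.

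The design also asks whether a mutant acted differently in the male and female culture, which was tested as the male effect minus the female effect. For p53 R172H all 10 members differed, beside 58% of all genes tested, for p53 Y202C 9 of 10 (all but Gclm), beside 68%, and for p53 Y217C 6 of 10, beside 54.8%. Nqo1 differed with the male effect lower in all 3, with differences of -1.62 ± 0.13 (adjusted p = 1.24e-10) for p53 R172H, -2.31 ± 0.13 (adjusted p = 1.15e-13) for p53 Y202C and -2.13 ± 0.13 (adjusted p = 1.18e-12) for p53 Y217C. Hmox1 differed with the male effect higher in all 3, at 0.26 ± 0.089 (adjusted p = 0.0164), 1.04 ± 0.089 (adjusted p = 2.45e-10) and 1.52 ± 0.089 (adjusted p = 3.95e-13) in that order. The p53 R172H difference was lost without male p53 R172H replicate 3 (adjusted p = 0.0544). For Gsta4 the difference was -2.80 ± 0.18 for p53 R172H and -2.54 ± 0.19 for p53 Y202C but 2.73 ± 0.18 for p53 Y217C (adjusted p = 4.55e-12), the largest in size of the 30 differences for p53 R172H and the next largest for p53 Y217C. Gstm1 likewise had a lower male effect for p53 R172H (-1.18 ± 0.12, adjusted p = 2.18e-08) and a higher one for p53 Y217C (1.93 ± 0.13, adjusted p = 2.91e-12). Its smaller p53 Y202C difference of 0.39 ± 0.12 (adjusted p = 0.00777) was lost with upper-quartile scaling (0.0807).

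Slc7a11, Gclc and Txnrd1 shared the sign of these differences for p53 R172H and p53 Y202C. Slc7a11 had a higher male effect by 0.82 ± 0.11 and 1.77 ± 0.11, Gclc by 0.67 ± 0.095 and 1.39 ± 0.096, and Txnrd1 by 0.70 ± 0.081 and 1.33 ± 0.081, for p53 R172H and p53 Y202C, all called. For p53 Y217C none of these 3 was called, with differences of -0.10 ± 0.11 (adjusted p = 0.478) for Slc7a11, 0.21 ± 0.095 (adjusted p = 0.0636) for Gclc and 0.17 ± 0.081 (adjusted p = 0.0799) for Txnrd1. Gclc then passed without male p53 KO replicate 1 (adjusted p = 0.0333) or female p53 Y217C replicate 3 (0.0398), and Txnrd1 without male p53 KO replicate 1 (0.0299) or male p53 Y217C replicate 1 (0.0488). Both also passed in DESeq2 and in limma, at adjusted p of 0.0463 and 0.0148 for Gclc and 0.0497 and 0.0151 for Txnrd1. Srxn1 had a lower male effect for p53 R172H (-0.59 ± 0.073) and p53 Y202C (-1.15 ± 0.074), and for p53 Y217C the -0.17 ± 0.073 missed the threshold (adjusted p = 0.0605) but passed in limma (0.00558). Nfe2l2 had a lower male effect for p53 R172H (-0.59 ± 0.092) and a higher one for p53 Y202C (0.90 ± 0.092) and p53 Y217C (0.49 ± 0.092). Gclm had a lower one for p53 R172H (-0.61 ± 0.098) and a higher one for p53 Y217C (0.46 ± 0.098). The amount of introduced Trp53 also differed between the cultures, with 2324 CPM in male and 593 CPM in female p53 Y202C and 1215 CPM in male and 3709 CPM in female p53 Y217C. For p53 R172H it was 2287 and 1956 CPM, and the part of this amount in the differences was not tested.

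**Figure D3:**
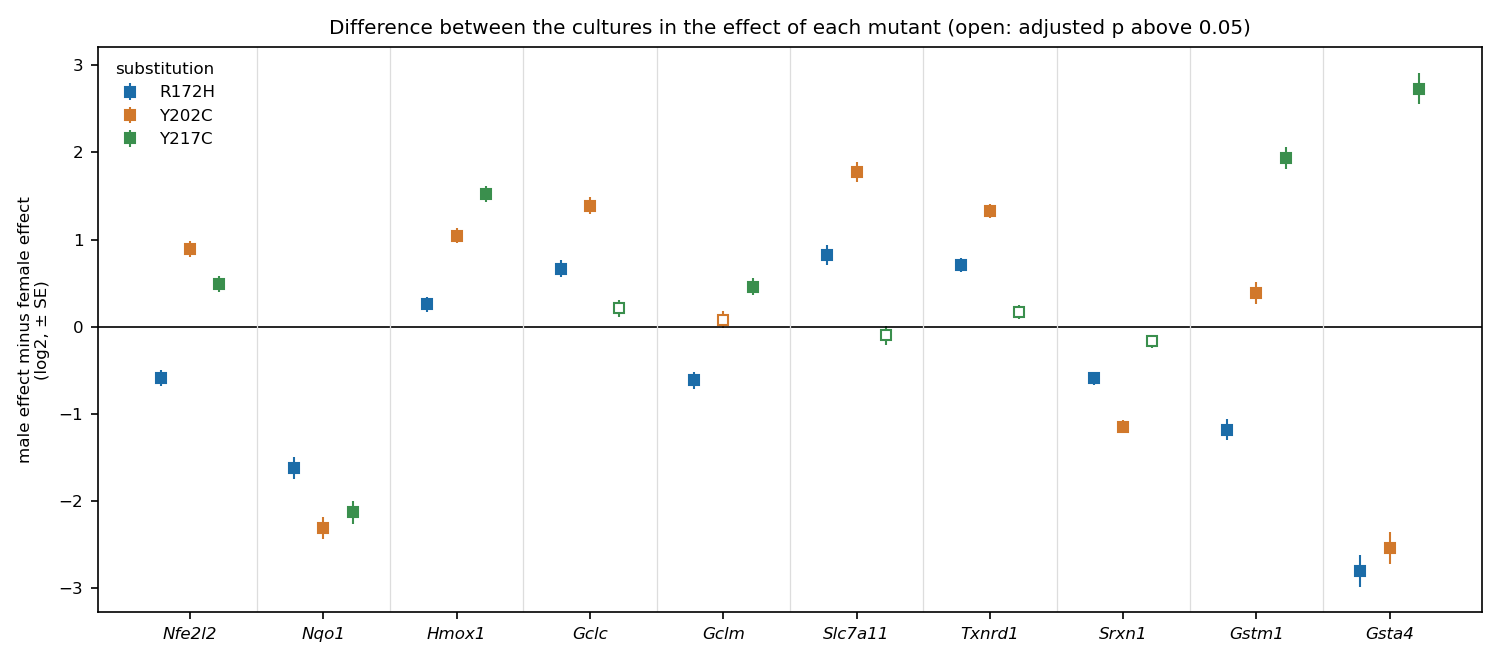
Male effect minus female effect of each substitution on the 10 genes, in log2 units ± SE, with open squares for adjusted p above 0.05. Nqo1 lies below 0 and Hmox1 above 0 for all 3 substitutions, and Gsta4 lies at -2.80, -2.54 and 2.73.

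The p53 KO lines, which carry no introduced Trp53, also differed from each other, at 7 of the 10 members, where 31.1% of all genes tested differed in either direction. Male p53 KO was higher for Nqo1 (0.92 ± 0.09), Gsta4 (0.74 ± 0.13, adjusted p = 7.86e-05), Nfe2l2 (0.25 ± 0.065, adjusted p = 0.00418), Srxn1 (0.21 ± 0.052, adjusted p = 0.00268) and Gclm (0.20 ± 0.069, adjusted p = 0.0307). It was lower for Hmox1 (-0.38 ± 0.063, adjusted p = 4.58e-05) and Txnrd1 (-0.28 ± 0.057, adjusted p = 0.000593). The Gclm call was lost without male p53 KO replicate 1 (adjusted p = 0.149) or 2 (0.0603) and without female p53 KO replicate 2 (0.0532) or 3 (0.176). Slc7a11 (-0.043 ± 0.079), Gclc (-0.16 ± 0.067) and Gstm1 (0.084 ± 0.088) were not called, at adjusted p of 0.735, 0.0739 and 0.516, and Gclc passed without male p53 KO replicate 1 (0.0389).

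Per length of annotated exon, in CPM per kilobase (RPKM), the levels of the 10 genes were set side by side. The length was the union of the exons of all annotated transcripts, 13.9 kb for Slc7a11 and 1.27 kb for Gsta4. Exon bases that the lines do not use lower a value, so the order of genes with close values is uncertain. In male p53 KO the mean level was highest for Hmox1, at 52.6 RPKM, followed by Txnrd1 at 38.6, Gstm1 at 35.7 and Nfe2l2 at 27.6 RPKM. Slc7a11, at 3.43 RPKM, and Gsta4, at 3.68 RPKM, were lowest, and Nqo1 was at 10.8 RPKM. In male p53 Y217C, Gstm1 at 176 RPKM stood above Hmox1 at 155 RPKM, and Nqo1 at 3.14 RPKM was the lowest of the 10. In female p53 Y202C, Gstm1 at 80.5 RPKM also led, ahead of Hmox1 at 68.4 RPKM, with Slc7a11 lowest at 2.47 RPKM.

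Across the 8 line means of log2 CPM the members fell into no common pattern, as described by Pearson's r over lines that share a culture, passages and preparation. Hmox1 and Gstm1 were most alike (r = 0.86), followed by Gclc and Slc7a11 (r = 0.82), Nfe2l2 and Gstm1 (r = 0.77) and Gclc and Txnrd1 (r = 0.77). Slc7a11 and Srxn1 ran opposite to each other (r = -0.91), as did Nqo1 and Hmox1 (r = -0.79) and Nqo1 and Gclc (r = -0.76). Gclc and Gclm, subunits of 1 enzyme, had r = 0.23. Nfe2l2 mRNA had r = -0.44 with Nqo1 and -0.56 with Srxn1. By rank (Spearman's rho) the values were -0.24 with Nqo1 and 0.14 with Srxn1, so the sign for Srxn1 depended on the measure. The genes most like each member were searched among 4519 genes whose line means varied with an SD of at least 0.5. Gclc, Gclm, Txnrd1 and Srxn1 varied less (SD 0.44, 0.24, 0.37 and 0.31), so the search could not return them. None of the other members was among the 2 most alike to another member. Nfe2l2 was most like 2610301B20Rik (r = 0.99) and Rgs8 (r = 0.99), Nqo1 most like Ptges (r = 0.98) and Slc46a1 (r = 0.96), Hmox1 most like Sord (r = 0.97) and Gm5884 (r = 0.96), and Slc7a11 most like Slc18a2 (r = 0.99) and Ostn (r = 0.96). For the transferases the closest were Prelp (r = 0.99) and AI413582 (r = 0.97) for Gstm1 and Ropn1l (r = 0.98) and Sept4 (r = 0.97) for Gsta4. Gclc was nearest to Creld1 (r = 0.97) and Rbm38 (r = 0.97), Gclm to Hist1h2be (r = 0.97) and Sox8 (r = 0.94), Txnrd1 to Mrto4 (r = 0.97) and Ciapin1 (r = 0.96) and Srxn1 to Cdkn3 (r = 0.94) and Gm11953 (r = 0.93). By rank, Srxn1 and Gm11953 were less alike (rho = 0.33). Every member thus had at least 2 genes at r of 0.93 or more over these 8 points, out of the 4519 searched. How often unrelated genes reach such r in a search of this size was not tested, so no link between the named genes is read from it.

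Genes that start within 2.5 Mb of a member give the level of its chromosome region in the same comparison, and in a few lines the region moved too. The 82 neighbours of Nqo1 had a median change of 0.50 in female p53 Y217C, with the middle 50% from 0.37 to 0.68, against 0.35 for Nqo1, which lay below that median. In female p53 R172H and p53 Y202C the neighbours' medians were 0.30 and 0.28, below the 0.95 and 1.27 of Nqo1. In the male lines they were 0.097, -0.12 and 0.076, while Nqo1 fell. Gclc, with 29 neighbours, changed by 0.36 in male p53 Y217C, where their median was 0.39, and in male p53 Y202C their median was 0.36 against 0.74. Gsta4 starts within 2.5 Mb of Gclc, so each counts among the other's neighbours, and the windows overlap and describe largely 1 region. Gsta4 changed by 2.51 in male p53 Y217C, where its 23 neighbours had a median of 0.30. In female p53 Y217C the neighbours of Gclc and of Gsta4 had a median of 0.29, against 0.15 for Gclc and -0.23 for Gsta4. For Gstm1 the 51 neighbours had medians between -0.09 and 0.19. For Hmox1 the 10 neighbours had medians of -0.10 and 0.18 in male p53 Y202C and p53 Y217C. For Txnrd1 the 88 neighbours had medians between -0.14 and 0.079. The 59 neighbours of Srxn1 had a median of -0.17 in male p53 R172H, where Srxn1 fell by 0.54, and -0.14 in male p53 Y217C, where it fell by 0.17. The part of gene copy number in these values was not tested.

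**Figure D4:**
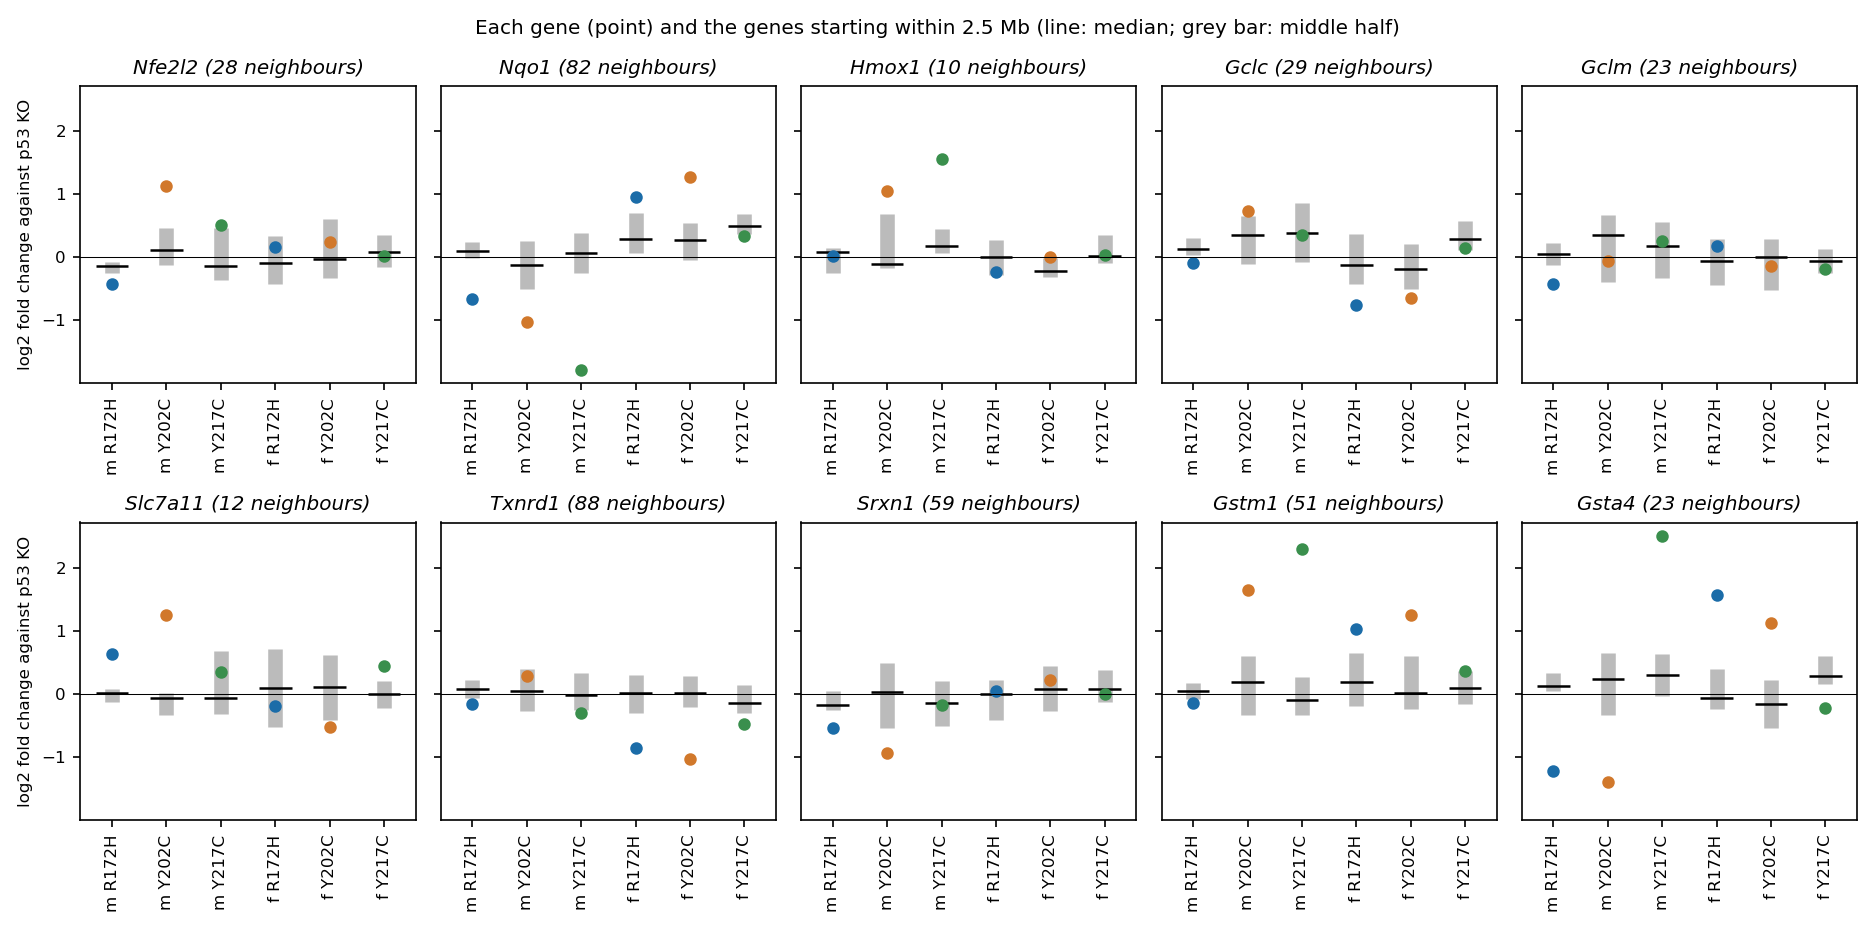
Log2 fold change of each member (point) against the p53 KO of its culture, beside the median (line) and middle 50% (grey bar) of the tested genes that start within 2.5 Mb, on 1 shared axis for all panels. In the panel of Nqo1 the point of female p53 Y217C lies below the line of its neighbours, whereas the points of Gstm1 in male p53 Y217C and of Gsta4 in the same line lie far above theirs.

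The wider list of 82 tested redox and detoxification genes was read for counts and named genes. In male p53 R172H, 15 were higher and 30 lower (median -0.10), beside 20.2% and 20.5% of all genes. In male p53 Y202C 44 were higher and 27 lower (0.30), beside 37.6% and 35.4%, and in male p53 Y217C 37 and 28 (0.067), beside 34.9% and 35.6%. Female p53 R172H had 48 higher and 21 lower (0.27), beside 34.4% and 35.3% of all genes. Female p53 Y202C had 37 and 29 (0.076), beside 34.3% and 34.3%, and female p53 Y217C 35 and 28 (0.039), beside 28% and 28.7%. Of its 16 glutathione transferases, 2 were higher and 4 lower in male p53 R172H (median -0.032), 8 and 6 in male p53 Y202C (0.48) and 10 and 4 in male p53 Y217C (0.60). Female p53 R172H had 15 of them higher and 1 lower (1.51), female p53 Y202C 12 higher and 2 lower (0.89) and female p53 Y217C 10 higher and 4 lower (0.44). Gstm4 was at 2.31 ± 0.293 CPM in male p53 KO, 1.21 ± 0.223 CPM in p53 R172H, 0.394 ± 0.249 CPM in p53 Y202C and 0.299 ± 0.0641 CPM in p53 Y217C. In the female culture it was at 1.31 ± 0.0663 CPM in p53 KO and higher in p53 R172H (4.42 ± 0.486 CPM) and p53 Y202C (3.68 ± 0.276 CPM). It was lower in female p53 Y217C, at 0.412 ± 0.0283 CPM. Mgst1, a membrane-bound transferase, was at 0.913 ± 0.283 CPM in male p53 KO, 18.0 ± 2.05 CPM in male p53 Y202C and 15.2 ± 1.71 CPM in male p53 Y217C. In the female culture it was at 0.0732 ± 0.0562 CPM in p53 KO, where 1 library held 2 counts, 19.8 ± 1.1 CPM in p53 R172H, 26.1 ± 4.43 CPM in p53 Y202C and 0.075 ± 0.0553 CPM in p53 Y217C.

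Sod3, the secreted superoxide dismutase, had the largest rise of the list in 3 comparisons, from 4.55 ± 0.449 CPM in male p53 KO to 108 ± 8.3 CPM in p53 Y202C and 422 ± 26.6 CPM in p53 Y217C, and it fell to 0.651 ± 0.265 CPM in male p53 R172H. In female p53 R172H it was at 206 ± 16.1 CPM against 0.536 ± 0.0974 CPM in female p53 KO, 8.58 ± 0.15 on the log2 scale (adjusted p = 1.10e-22). Of the 4 superoxide and peroxide enzymes, 0, 2 and 2 were higher and 3, 1 and 1 lower in male p53 R172H, p53 Y202C and p53 Y217C, and 2, 1 and 2 were higher and 1, 0 and 0 lower in those female lines. Of the 19 detoxification and carbonyl-reducing genes, 4 were higher and 9 lower in male p53 R172H (beside 20.2% and 20.5% of all genes), 12 and 3 in male p53 Y202C (37.6% and 35.4%) and 11 and 5 in male p53 Y217C (34.9% and 35.6%). Female p53 R172H had 15 of them higher and 1 lower (34.4% and 35.3%), female p53 Y202C 12 higher and 7 lower (34.3% and 34.3%) and female p53 Y217C 8 higher and 6 lower (28% and 28.7%). Aldh3a1, an aldehyde dehydrogenase, was at 24.8 ± 2.78 CPM in female p53 Y202C against 0.142 ± 0.021 CPM in female p53 KO (7.44 ± 0.31, adjusted p = 7.34e-16). Aldh1a1, the retinal dehydrogenase, rose 4.94-fold in male p53 R172H (adjusted p = 4.28e-09) and 5.04-fold in female p53 Y217C (adjusted p = 7.78e-10). These lines did not hold its highest means. Among male lines Aldh1a1 peaked with p53 Y217C at 11.7 CPM, p53 R172H reached 5.93 CPM, p53 Y202C 2.39 CPM and the p53 KO 1.17 CPM. Among female lines p53 R172H was highest at 17.3 CPM, then p53 Y217C at 9.43 CPM, p53 Y202C at 3.14 CPM and the p53 KO at 1.87 CPM. Cbr3, a carbonyl reductase, fell from 11.1 ± 0.543 to 2.41 ± 0.256 CPM in male p53 R172H, and Htatip2 fell from 8.44 ± 0.53 to 0.409 ± 0.0723 CPM in female p53 Y217C. Abcc3, an efflux pump for conjugates, fell from 2.6 ± 0.153 to 0.256 ± 0.0801 CPM in male p53 Y217C (-3.34 ± 0.31, adjusted p = 9.94e-10). The other genes the naming rule gave were Gstt3, which changed by -1.99 ± 0.24 in male p53 Y202C, Abcc1 (-0.85) and the glutaredoxin Glrx (-0.89) in female p53 R172H, and Pir, by -1.80 and -2.22 in female p53 Y202C and p53 Y217C. Gstm6 was at 0.456 ± 0.0338 CPM in female p53 Y217C and 0.0834 ± 0.0671 CPM in female p53 KO, where 1 library held 2 counts.

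The remaining groups were smaller and mixed. Counts are given in the order p53 R172H, p53 Y202C and p53 Y217C. The shares of all genes were 20.2%, 37.6% and 34.9% higher and 20.5%, 35.4% and 35.6% lower in the male lines, and 34.4%, 34.3% and 28% higher and 35.3%, 34.3% and 28.7% lower in the female lines. Of 10 thioredoxin and peroxiredoxin genes, 4, 7 and 4 were higher and 2, 2 and 4 lower in the male lines, and 3, 3 and 3 were higher and 4, 5 and 5 lower in the female lines, with a median of 0.51 in male p53 Y202C. Of 6 genes that supply NADPH, 0, 2 and 2 were higher and 4, 4 and 2 lower in the male lines, and 3, 2 and 2 were higher and 3, 4 and 3 lower in the female lines. Of 8 genes of glutathione synthesis and recycling, 2 to 4 were higher and 2 or 3 lower in each line. Of 6 iron and haem genes, 1, 2 and 2 were higher and 0, 3 and 1 lower in the male lines, and 3, 4 and 4 were higher and 1, 2 and 2 lower in the female lines. Of 5 efflux pumps, 0, 2 and 1 were higher and 2, 3 and 4 lower in the male lines, and 1, 0 and 0 were higher and 3, 3 and 2 lower in the female lines. Fth1, the ferritin heavy chain, and Sqstm1, the autophagy receptor that binds Keap1, were chosen for mention after their values were seen. Fth1 was at 975 ± 41.5 CPM in male p53 KO and 2508 ± 275 CPM in male p53 Y202C, and it rose in every mutant line but male p53 R172H. Sqstm1 was at 411 ± 13.7 CPM in male p53 KO and 1272 ± 63.4 CPM in male p53 Y202C (1.63 ± 0.06, adjusted p = 2.86e-17), and its male and female p53 Y202C effects differed by 1.51 ± 0.083 (adjusted p = 8.26e-14).

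**Figure D5:**
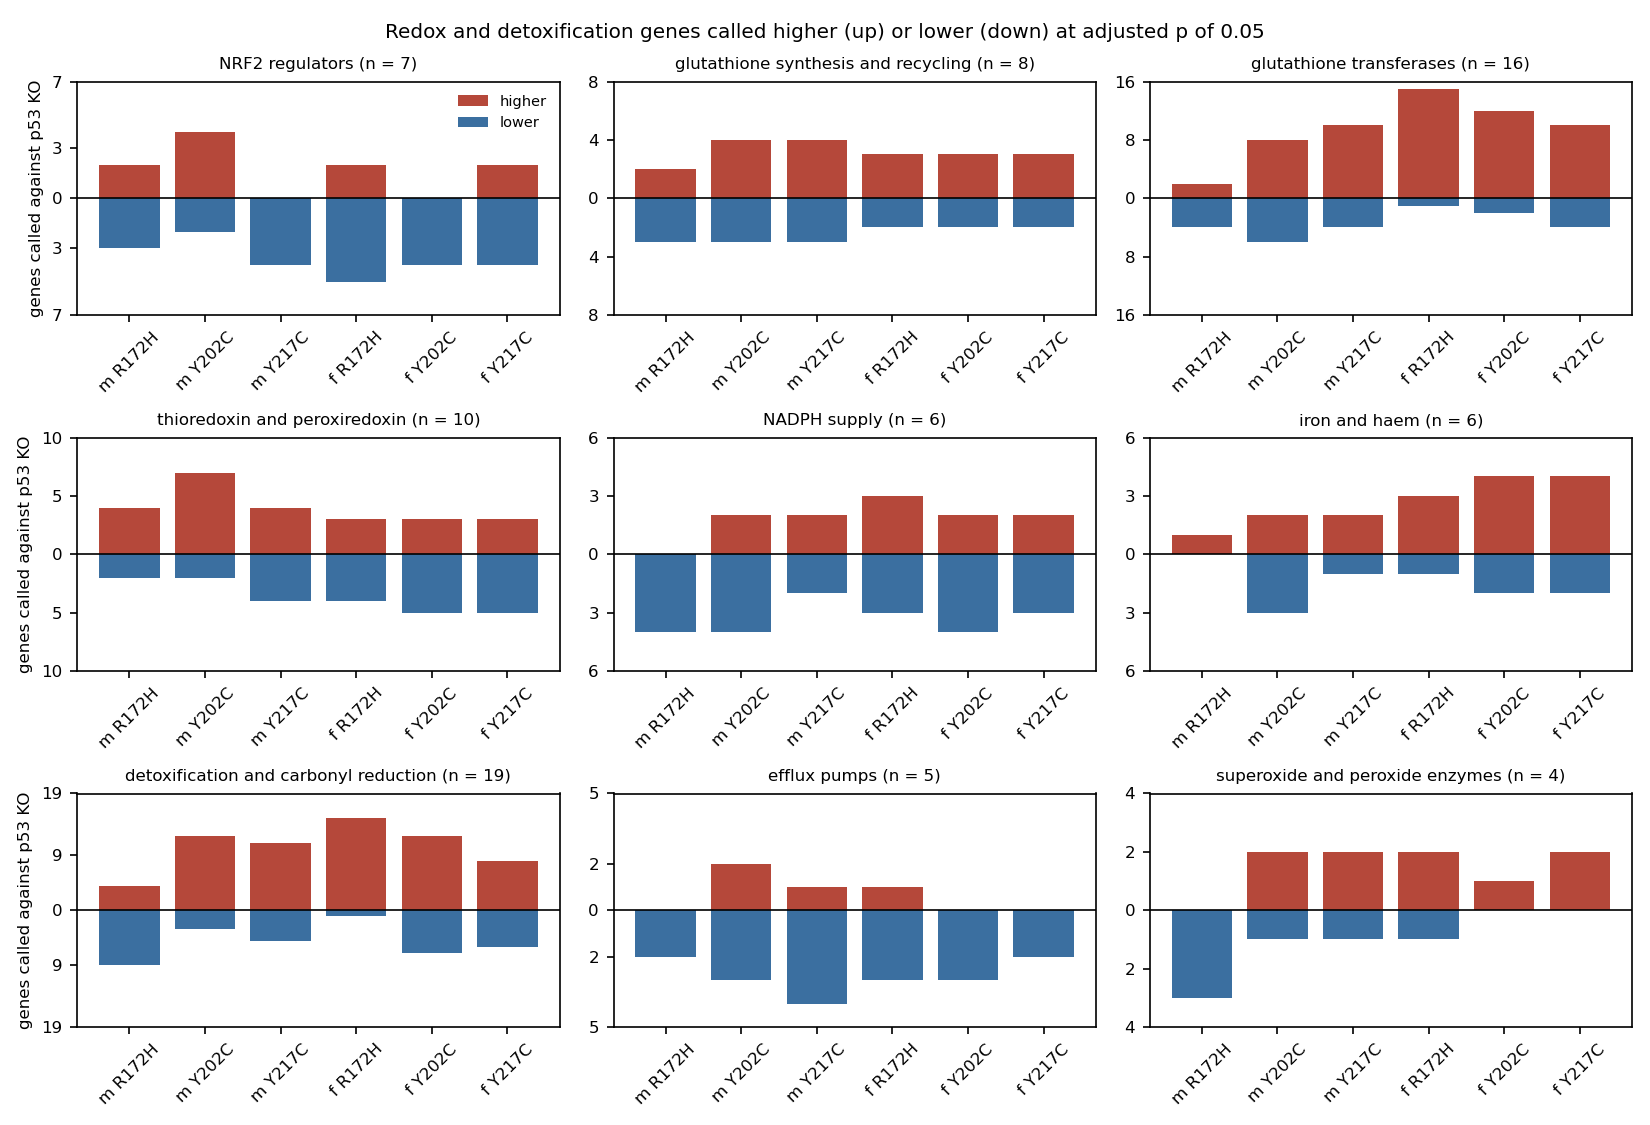
Number of genes called higher (upward bars) and lower (downward bars) against the p53 KO of the culture, for 9 groups of the wider list, each axis running to the size of its group. The transferases and the detoxification genes have their tallest upward bars, 15 of 16 and 15 of 19, in female p53 R172H.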

How the data were processed

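RNA-seq libraries of 8 mouse astrocyte lines (n = 3 each) were compared. According to the study, reads were aligned with STAR to the Ensembl release 76 primary assembly, and the authors deposited raw counts per gene from uniquely aligned, unambiguous reads (Subread featureCounts). The strand setting is not given in the sources used here. By the study's methods, ribosomal genes and genes without over 1 CPM in at least 2 libraries were left out, and no deposited gene fell under that limit. Ensembl IDs were matched to GENCODE M21 symbols, and 77 IDs had none.

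The members and the gene lists were chosen with earlier results of these data known. In R 4.3.3, edgeR 4.0.16 (TMM factors, quasi-likelihood test) was fitted to all 24 libraries with 1 mean per line. The same filter kept all 14427 genes, p-values were adjusted by Benjamini-Hochberg over these, and the script was tested on simulated data. The study itself used limma. CPM and RPKM were computed from the counts over TMM-adjusted library sizes, with log2 CPM using a prior count of 2. Named genes were the 10 members, Trp53, 7 regulators and, in each mutant against p53 KO comparison, the 2 largest rises and the 2 largest falls of the wider list having 10 counts or more in each library of whichever line was higher.

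Alternatives were limma 3.58.1, DESeq2 1.42.0, other scalings, filters and thresholds, a replicate block, and fits without each library.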

Additional observations from a re-analysis of the deposited data

Results flagged for a closer look

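The results below stand out because a test of the difference itself found that a mutant changed the gene differently in the male and the female culture, at an adjusted p of 0.05 or less (edgeR, 3 libraries a line). Such a difference was also called for 58%, 68% and 54.8% of all genes tested for the p53 R172H, the p53 Y202C and the p53 Y217C effect. Values are the male effect minus the female effect on the log2 scale.

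For Nqo1 the differences were -1.62 for the p53 R172H effect, -2.31 for the p53 Y202C effect and -2.13 for the p53 Y217C effect, with opposite called directions in the cultures each time. For Gsta4 they were -2.80, -2.54 and 2.73, for Gstm1 -1.18, 0.39 and 1.93, and for Hmox1 0.26, 1.04 and 1.52, in the same order. Nfe2l2 differed by -0.59, 0.90 and 0.49.

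For p53 R172H and p53 Y202C, Slc7a11 differed by 0.82 and 1.77, Gclc by 0.67 and 1.39, Txnrd1 by 0.70 and 1.33 and Srxn1 by -0.59 and -1.15. Gclm differed by -0.61 for p53 R172H and 0.46 for p53 Y217C. Each culture was 1 pool of pups, so the sex of the donor and the culture cannot be told apart.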

How the results depend on the processing

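The 100 results for single members (10 genes in 10 comparisons) kept their direction and their side of the threshold in all 100 cases with the replicate block, in 98 with DESeq2 size factors, 97 in DESeq2, 95 with the filter of over 5 CPM in at least 3 libraries, 93 with upper-quartile factors, 93 with only the lines compared, 93 at an adjusted p of 0.01 and 92 in limma. The filter removed no gene, so the fit without it was the same fit. Under the replicate block the member counts stayed as given (7, 9 and 10 called in male p53 R172H, p53 Y202C and p53 Y217C, and 9, 8 and 5 in the female lines). Replicate numbers did not pair the libraries: deviations from the line means correlated at -0.012 on average over 84 pairs with the same number and at 0.0057 over 168 with different numbers, and no comparison had every pair above 0.1. Upper-quartile factors moved the median of all genes by -0.10 in male p53 Y202C and by -0.14 in the p53 Y202C difference between cultures, and by less than 0.1 elsewhere.

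Requiring an absolute log2 fold change above 0.5 as well left 4 members in male p53 R172H, 5 in male p53 Y217C, 5 in female p53 R172H, 2 between the p53 KO lines and 0 in female p53 Y217C, where edgeR, limma and DESeq2 each gave 6 members at an unadjusted p under 0.05 and the largest absolute change was 0.47, 0.46 and 0.48. Of the wider list it left 13, 47 and 37 genes in the male lines, 36, 41 and 27 in the female lines, 39 and 29 for the p53 R172H and p53 Y217C differences and 18 between the p53 KO lines. Of the 100 single-member results, 71 kept their side of the threshold under both limits and 29 calls were lost. Fewer genes can pass both limits than 1 of them.

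In the alternatives run, the changes of sign of single members occurred at values between -0.061 and 0.022, and their cause was not tested. Srxn1 in female p53 Y217C turned to 0.012 with upper-quartile factors, 0.0056 with the 5 CPM filter, 0.00063 with only the lines compared, 0.0012 in limma, 0.017 without female p53 KO replicate 1 and 0.0011 without female p53 Y217C replicate 1. Hmox1 in female p53 Y202C turned to -0.043 in limma, and to -0.0029, -0.0085 and -0.061 without female p53 KO replicate 2, female p53 KO replicate 3 and female p53 Y202C replicate 2. The Gclm difference for p53 Y202C turned to -0.058 with upper-quartile factors. Without 1 library at a time, Slc7a11 between the p53 KO lines ran up to 0.022, Hmox1 in male p53 R172H from -0.015 to 0.068, Hmox1 in female p53 Y217C from -0.0076 to 0.057, Nfe2l2 in female p53 Y217C from -0.0016 to 0.037, Srxn1 in female p53 Y217C from -0.0304 and Hmox1 in female p53 Y202C to 0.042.

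Leaving out each library in turn kept 740 of 780 single-member results, with 22 calls lost, 9 gained and 9 turned in sign. The number of members called ran from 6 to 7 in male p53 R172H, stayed at 9 in male p53 Y202C and at 10 in male p53 Y217C, and ran from 6 to 8 in female p53 R172H, 8 to 9 in female p53 Y202C and 4 to 6 in female p53 Y217C. For the differences it ran from 9 to 10, stayed at 9 and ran from 6 to 8, and between the p53 KO lines from 6 to 7. The counts of the wider list ran from 35 to 43, 69 to 72 and 59 to 63 in the male lines, 63 to 66, 65 to 68 and 57 to 59 in the female lines, 56 to 59, 63 to 67 and 50 to 56 for the differences, and 30 to 33 between the p53 KO lines. The lowest female p53 R172H count of members came without female p53 R172H replicate 2. Gsta4 had the lowest count of the members, 121 in 1 library, and depth was not varied.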
